A study of Sus scrofa with 12 samples.

Results

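The genes described here code for 9 cardiac ion channel subunits: the inward rectifiers KCNJ2 and KCNJ11, the voltage-gated potassium channel genes KCNQ1, KCNH2, KCNA5 and KCND3, the accessory subunit KCNIP2, and the pacemaker channels HCN2 and HCN4. They were chosen by name and looked up through the pig symbols of the Ensembl identifiers, and all 9 were listed among the 35682 genes counted, of which 15623 had a symbol. No sodium channel gene is among the 9, so the sodium channel beta subunit genes SCN2B and SCN3B are given beside them. RNA had been sequenced in 12 libraries from the hearts of 6 Yorkshire pigs, each animal giving 1 border zone and 1 remote zone library from mid-ventricular level. The animals carry the numbers 1022, 1322, 1323, 1623, 1922 and 3622.

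All 6 pigs had undergone ischemia-reperfusion injury, in which a balloon closed the left anterior descending coronary artery for 60 min, at an age of 10 to 12 weeks. From day 9 after the injury, all were given tacrolimus at 0.75 mg/kg/day, mycophenolate mofetil at 500 mg/day and prednisolone at 20 mg/day. On day 14, a left thoracotomy followed, and either vascular organoids built from human smooth muscle cells and human endothelial progenitor cells or fibrin glue alone was placed on the heart. Tissue was taken 28 days after the thoracotomy. Border zone is heart wall beside the infarct, and remote zone is posterior wall away from it. Which animal received which treatment was not used, so both regions mix treated and control animals, and values for each region are shown library by library or as lowest, median and highest. No uninjured heart is among the 12 libraries.

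Potassium channels carry the outward current that ends the cardiac action potential, and inward rectifiers hold the resting potential of the working myocyte. KCNQ1 with its partner KCNE1 carries the slow delayed rectifier current, KCNH2 the rapid one, and KCNA5 the ultrarapid one, which is best known from the atrium. HCN channels open on hyperpolarization and carry the pacemaker current, with HCN4 the main form of the sinoatrial node and HCN2 found also in ventricular muscle.

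Levels are normalized CPM, read counts relative to library size and scaled by the TMM method, which corrects library totals for differences in composition. Border zone libraries held 15130210 to 30526110 counts on genes (median 22110297) and remote zone libraries 20091415 to 31618680. The border zone library of animal 3622 had the smallest total yet listed the most genes above 0, 28024 against 17563 to 20148 in the other border zone libraries. In the library names, animal 3622 also had the numbering of its regions opposite to that of the other 5 animals, and its regions were taken as its sample titles give them. The border zone library of animal 1022 had a mean log2 CPM over 11 cardiomyocyte genes of 9.89, against 12.09 to 12.56 across the remote zone, and had the highest mean of the fibroblast and matrix list, 10.41. All 12 libraries held cardiomyocyte genes at high levels, with the troponin gene TNNT2 between 2360 and 18400 CPM. In bulk tissue, fewer cells of a type and less RNA per cell cannot be told apart.

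Of the 9 genes, 8 passed the filter on low counts and were tested, and HCN4 did not. Between border and remote zone, 7 of the 8 had a log2 fold change below 0, from -0.72 for KCNA5 to -0.30 for KCNIP2, and KCND3 was at 0.18. None passed at 0.05 in the quasi-likelihood test of edgeR, with p adjusted by Benjamini-Hochberg over all 13844 genes tested, of which 2.07% passed. On simulated data this test recovered 23 of 100 genes changed 2-fold, so not passing does not show that a gene was unchanged. With the animal as a block, 0 of the 8 passed, beside 0.296% of all genes, and 0 passed by DESeq2, beside 1719 of 30085 genes. Without animal 3622, 0 of all genes tested passed, so that count says nothing about the 8 in particular. Their log2 fold changes without that animal ran from -0.63 for KCNA5 and KCNQ1 to 0.22 for KCND3. At an unadjusted p under 0.05, KCNQ1 and KCNA5 were lower in the border zone, which is 2 of the 8, while 7.78% of all genes tested were lower at that level. This count of 2 was not stable: it was 0 with library totals, 4 with the animal as a block or without animal 1322, and 1 without animal 1022, 1922 or 3622. Over all genes tested, the log2 fold change had a median of 0.04 and was below 0 for 46.7%.

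In the border zone of every animal, 4 of the 8 tested genes were lower than in the same animal's remote zone, namely KCNJ2, KCNQ1, KCNA5 and HCN2. Among all genes tested, 11.1% were lower in 6 of 6 animals. This count depended on the scaling: with library totals in place of TMM, 0 of the 8 were lower in every animal, and the median over all genes tested moved from 0.04 to 0.32. The TMM factors ran from 0.671 in the remote zone library of animal 3622 to 1.30 in the border zone library of animal 1022. With library totals, the log2 fold changes of these 4 genes were -0.26 for KCNJ2, -0.40 for KCNQ1, -0.46 for KCNA5 and -0.03 for HCN2. Those of KCNJ11, KCNH2, KCNIP2 and KCND3 were -0.29, -0.16, -0.08 and 0.37 on that scale.

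**Figure D1:**
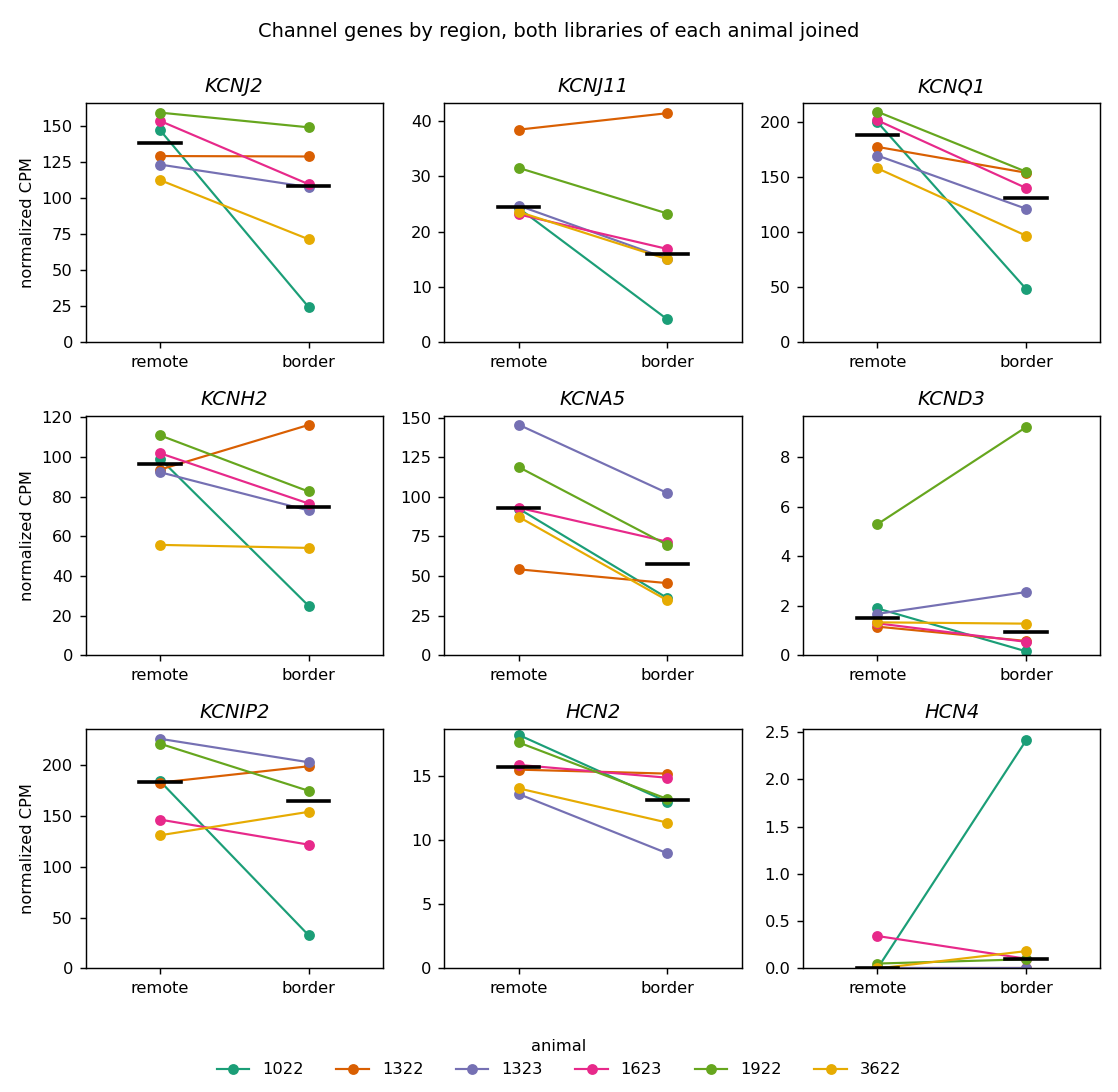
Normalized CPM (y axes, linear from 0) of the 9 genes in the remote and border zone, with a line joining both libraries of each animal and a black bar at the median of 6 libraries. The line of animal 1022 is the steepest for every gene but KCND3, and it rises only for HCN4. KCND3 is highest in animal 1922 in both regions.

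The bases before the annotated start of KCNJ2, KCNQ1 and HCN2 are shown, 3 of the 4 members that were lower in every animal. Coordinates of genes and windows are those of RefSeq on Sscrofa11.1, the build the counts were made on. Each run is the 250 bases upstream of the RefSeq gene start on Sscrofa11.1, read 5′ to 3′ on the strand of the gene, with capitals marking the GC box GGGCGG on either strand. KCNJ2 lies on chromosome 12, with chr12:10380632-10380881 on the minus strand. The windows of KCNQ1 and HCN2 are chr2:1675073-1675322 on the plus strand and chr2:77730882-77731131 on the minus strand.
KCNJ2: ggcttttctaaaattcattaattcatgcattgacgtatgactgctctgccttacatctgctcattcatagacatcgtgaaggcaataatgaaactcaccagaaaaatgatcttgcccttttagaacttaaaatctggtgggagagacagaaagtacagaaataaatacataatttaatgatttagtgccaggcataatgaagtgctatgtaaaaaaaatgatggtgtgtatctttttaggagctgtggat
KCNQ1: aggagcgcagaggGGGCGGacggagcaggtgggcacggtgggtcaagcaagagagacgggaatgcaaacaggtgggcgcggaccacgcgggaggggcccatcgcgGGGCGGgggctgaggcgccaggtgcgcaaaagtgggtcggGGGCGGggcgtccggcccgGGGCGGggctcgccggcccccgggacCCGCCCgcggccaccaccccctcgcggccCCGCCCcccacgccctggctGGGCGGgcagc
HCN2: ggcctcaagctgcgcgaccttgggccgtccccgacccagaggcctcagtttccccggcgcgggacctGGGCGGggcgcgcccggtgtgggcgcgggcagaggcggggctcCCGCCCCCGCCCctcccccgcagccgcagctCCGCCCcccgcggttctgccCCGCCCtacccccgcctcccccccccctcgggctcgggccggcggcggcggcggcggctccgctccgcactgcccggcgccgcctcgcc

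The GC box occurred 7 times before KCNQ1 and 5 times before HCN2, with 2 of these adjoining, and KCNJ2 had no match. Of the windows of 8 members looked at, 6 held it, all but those of KCNJ2 and KCNJ11, beside 45.9% of 19546 windows of the same length. These lie before annotated protein-coding genes on the numbered, X and Y chromosomes, without windows that hold unknown bases. The GC content of the windows was 79.6% for KCNQ1, 84.0% for HCN2 and 34.8% for KCNJ2, beside a median of 57.6% over all windows. The other 3 motifs searched on both strands had no match in the 8 windows: the TATA box TATAAA, held by 9.77% of all windows, the GATA motif AGATAA, held by 8.08%, and the MEF2 motif, held by 2.55%. A match or its absence describes only the letters in these windows.

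KCNJ2 (ENSSSCG00000039947, chr12:10351959-10380631, minus strand) codes for Kir2.1, the main pore of the inward rectifier current of ventricular muscle. In animals 1022, 1322, 1323, 1623, 1922 and 3622, in that order, it stood at 24.5, 128.8, 107.6, 109.6, 149 and 71.5 CPM in the border zone, and at 147, 129.1, 123, 153.5, 159 and 112.5 CPM in the remote zone. The groups overlapped, with 4 of 6 border zone libraries below every remote zone library, and animal 1322 had nearly equal values. The log2 fold change was -0.48 (SE 0.318, 95% interval -1.16 to 0.20, adjusted p = 0.364), and -0.28 without the border zone library of animal 1022. An annotated gene on the opposite strand shares 10.7% of the exon bases of KCNJ2, and the libraries did not keep strand, so reads there cannot be told apart.

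KCNJ11 (ENSSSCG00000042162, chr2:41756637-41760340, plus strand) codes for Kir6.2, the pore of the channel that ATP closes, which couples the membrane potential to the energy state of the cell. In the same order of animals, its border zone levels were 4.16, 41.4, 15.1, 16.9, 23.3 and 15.0 CPM and its remote zone levels 24.3, 38.5, 24.7, 23.2, 31.6 and 23.6 CPM. Animal 1322 had the highest level in both regions and was the 1 animal with a higher value in the border zone. With edgeR, KCNJ11 had a log2 fold change of -0.52 (SE 0.378, 95% interval -1.33 to 0.29, adjusted p = 0.415), and -0.31 without the border zone library of animal 1022.

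The partners of these inward rectifiers did not pass the test either. ABCC9 codes for the regulatory subunit SUR2 that joins KCNJ11 in ventricular muscle, and its log2 fold change was -0.15 (adjusted p = 0.804). Its direction turned, to 0.11 without animal 1022 and to 0.04 with library totals. The log2 ratio of ABCC9 to KCNJ11 counts within a library, which does not depend on scaling, was higher in the border zone in 6 of 6 animals, by a median of 0.68 and a range of 0.25 to 1.22. The median was 0.44 without animal 1022, 1322 or 3622 and 0.92 without any 1 of the others. For this ratio and those below, how often other gene pairs differ in this way was not computed. Each ratio also mixes all cells of the tissue. KCNJ8, the other ATP-sensitive pore, stood at -0.32 (adjusted p = 0.489), and KCNJ5, a subunit of the acetylcholine-gated channel, at -0.74 (adjusted p = 0.477). KCNJ8 stood at -0.17 without the border zone library of animal 1022, and KCNJ5 at -0.34 without animal 1022 and -1.19 without animal 1322.

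KCNQ1 (ENSSSCG00000039556, chr2:1675323-1989110, plus strand), the slow delayed rectifier pore, was the 1 member whose border and remote zone values were apart. In animals 1022, 1322, 1323, 1623, 1922 and 3622, it stood at 48.4, 154, 121, 140.0, 155 and 96.8 CPM in the border zone, and at 199.8, 177, 169.5, 201, 209 and 158 CPM in the remote zone. The groups did not overlap: the highest border zone library, at 155 CPM, was below the lowest remote zone library, at 158 CPM. Of all genes tested, 0.701% had every border zone library below every remote zone library. With library totals, 2 of the 6 border zone libraries were below every remote zone library. The log2 fold change of KCNQ1 was -0.64 (SE 0.242, 95% interval -1.16 to -0.12, adjusted p = 0.135 by edgeR), and the adjusted p over the alternatives ran from 0.0552 to 0.294. Without the border zone library of animal 1022 it was -0.48 (adjusted p = 0.123).

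KCNE1, the beta subunit that slows the gating of KCNQ1, had a log2 fold change of -0.40 (SE 0.219, adjusted p = 0.271), and -0.26 without the border zone library of animal 1022. The log2 ratio of KCNE1 to KCNQ1 counts was higher in the border zone in 5 of 6 animals, with a median of 0.26 and a range of -0.12 to 0.75. KCNE2 had no identifier through the symbol table and was not analysed here. A long noncoding RNA gene on the opposite strand shares 1.74% of the exon bases of KCNQ1.

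KCNH2 (ENSSSCG00000016448, chr18:6242826-6279154, plus strand) codes for the hERG channel of the rapid delayed rectifier current. Its border zone levels in the same order of animals were 25.0, 116, 73.0, 76.5, 82.6 and 54.2 CPM, and its remote zone levels 99.2, 93.6, 92.3, 102, 111 and 55.7 CPM. Animal 3622 was low in both regions, and animal 1322 was higher in its border zone. KCNH2 had a log2 fold change of -0.37 (SE 0.289, 95% interval -0.99 to 0.25, adjusted p = 0.442), and -0.20 without the border zone library of animal 1022.

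KCNA5 (ENSSSCG00000056277, chr5:65439336-65442207, minus strand) had the lowest log2 fold change of the 8 tested genes. It stood at 36.2, 45.6, 102, 71.7, 69.7 and 34.7 CPM in the border zone and at 92.6, 54.3, 145.5, 93.1, 119 and 87.4 CPM in the remote zone, again by animal from 1022 to 3622. The ranges overlapped because the animals differed: animal 1323 was highest in both regions, and animal 1322 was lowest in the remote zone. Within animals, all 6 differences were below 0, from -1.35 in animal 1022 to -0.25 in animal 1322 on the log2 scale. The log2 fold change was -0.72 (SE 0.292, 95% interval -1.34 to -0.09, adjusted p = 0.157 by edgeR). With the animal as a block it was -0.76 (SE 0.187, adjusted p = 0.0798). The range of adjusted p over the alternatives was 0.0798 to 0.358.

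KCND3 (ENSSSCG00000026680, chr4:108394687-108621514, plus strand), the Kv4.3 pore of the transient outward current, was the least abundant of the 8 tested genes and the most variable between animals. Its counts ran from 5 to 190 per library. By animal from 1022 to 3622, the border zone held 0.165, 0.584, 2.56, 0.549, 9.22 and 1.28 CPM, and the remote zone 1.90, 1.16, 1.68, 1.30, 5.30 and 1.34 CPM. Animal 1922 was highest in both regions, and the border zone was lower in 4 animals and higher in 2. The log2 fold change was 0.18 (SE 0.769, 95% interval -1.47 to 1.83, adjusted p = 0.913). It was -0.52 without animal 1922 and -0.55 with the animal as a block (adjusted p = 0.507), so its direction depended on animal 1922 and on the block.

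KCNIP2 (ENSSSCG00000010570, chr14:112857058-112876469, minus strand) codes for KChIP2, the calcium-binding subunit that brings Kv4 pores to the membrane. It stood at 32.8, 199.2, 203, 122, 175 and 154 CPM in the border zone and at 184.7, 183, 226, 147, 221.5 and 131 CPM in the remote zone, in the same order of animals. The border zone library of animal 1022 lay far below the other 11 libraries, while animals 1322 and 3622 had higher values in the border zone. For KCNIP2, the log2 fold change was -0.30 (SE 0.335, 95% interval -1.02 to 0.42, adjusted p = 0.607) and -0.10 without that library. The log2 ratio of KCNIP2 to KCND3 counts had a median of 6.96 in the border zone (range 4.23 to 8.19) and 6.64 in the remote zone (range 5.36 to 7.18). Within animals it was higher in the border zone in 4 and lower in 2, from -1.13 to 1.01. The other pores of the transient outward current were also at low counts: KCNA4 had at most 43 counts and KCND2 at most 104 counts in a library. Neither passed the test, with log2 fold changes of -0.14 (adjusted p = 0.881) for KCNA4 and 0.74 (adjusted p = 0.485) for KCND2, which ran from 0.12 without animal 1323 to 1.69 without animal 1022. KCNA4 turned to 0.21 without animal 1022 and to 0.11 with library totals.

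HCN2 (ENSSSCG00000033442, chr2:77708159-77730881, minus strand) varied the least of the 8 tested genes in the border zone, where its highest library was 1.69 times its lowest. By animal from 1022 to 3622, it stood at 12.99, 15.2, 8.98, 14.9, 13.2 and 11.4 CPM in the border zone and at 18.2, 15.5, 13.6, 15.9, 17.6 and 14.0 CPM in the remote zone. Every animal had the lower value in the border zone, by 0.03 in animal 1322 to 0.59 in animal 1323 on the log2 scale, and 4 of 6 border zone libraries lay below every remote zone library. Between the regions, HCN2 had a log2 fold change of -0.31 (SE 0.156, 95% interval -0.64 to 0.03, adjusted p = 0.233). In animal 1022, in which the 7 other tested genes differed by more than in any other animal, HCN2 differed by -0.49.

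HCN4 (ENSSSCG00000001920, chr7:60010396-60052258, plus strand) had at most 9 counts in 11 of 12 libraries. It had 0 counts in 6 libraries, and a count of 0 allows up to 3 counts in a library, for counting error only. The border zone libraries of animals 1623, 1922 and 3622 held 3, 2 and 3 counts, and the remote zone libraries of animals 1623 and 1922 held 9 and 1. The border zone library of animal 1022 held 73 counts, or 2.41 CPM, while the remote zone library of that animal held 0. HCN4 was not tested, and 1 library of 12 gives no comparison between the regions. HCN3, a further gene of the family, stood at a log2 fold change of 0.66 (SE 0.444, adjusted p = 0.372), and at 0.20 without the border zone library of animal 3622, its highest at 4.22 CPM.

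Markers of the conduction system were looked at beside the library with the most HCN4 counts. Of 10 such genes, the border zone library of animal 1022 was the highest border zone library for 4: the nodal transcription factors TBX3, at 26.2 CPM, and SHOX2, at 4.86 CPM, the growth factor BMP2, at 4.86 CPM, and the gap junction gene GJA5, at 33.6 CPM. Over the 8 of these genes that were tested, without ISL1 and CNTN2, the mean log2 CPM was 3.34 in that library. It ran from 1.93 to 3.34 over the border zone and from 1.55 to 2.39 over the remote zone libraries. IRX3 was lowest of the border zone there, at 44.7 CPM against up to 125 CPM, ETV1 stood at 30.0 CPM, near its highest border zone level of 31.7 CPM in animal 1323, and CNTN2, CPNE5 and NTM were highest in other animals. ISL1, a marker of the sinoatrial node, had at most 2 counts in any library. That library also had the highest border zone mean of the fibroblast, smooth muscle, endothelial, macrophage, nerve and atrial lists, at 5.22 over the 6 tested atrial genes. Of 7 atrial genes it was the highest border zone library for 3: DKK3 at 265 CPM, NR2F1 at 12.0 CPM and NR2F2 at 55.2 CPM. MYL4 at 52.1 CPM and NPPA at 172 CPM lay above their border zone medians of 28.4 and 117 CPM. SLN was lowest of the border zone there, at 1.62 CPM, and BMP10 had 0 counts. The part of these markers in the HCN4 count was not tested.

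Levels between genes were compared per length, as normalized CPM per kb of RefSeq exons. Over the remote zone medians, the order was KCNA5 at 32.3, KCNQ1 at 29.2, KCNIP2 at 24.2, KCNH2 at 16.4, KCNJ2 at 8.54, KCNJ11 at 6.61, HCN2 at 4.68, KCND3 at 0.198 and HCN4 at 0. Neighbours in this order overlapped in their remote zone ranges from KCNA5 down to KCNJ11, while KCNJ11 and HCN2, HCN2 and KCND3, and KCND3 and HCN4 were apart. In the border zone, KCNIP2 had the highest median, 21.7, followed by KCNQ1 at 20.3 and KCNA5 at 20.1, and these 3 overlapped. The exon lengths join all annotated isoforms, and they reached 16.18 kb for KCNJ2. Which of these exons were used was not tested. The counts were made on Ensembl genes and the lengths on RefSeq exons, and the agreement of both was not tested, which limits the order.

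**Figure D2:**
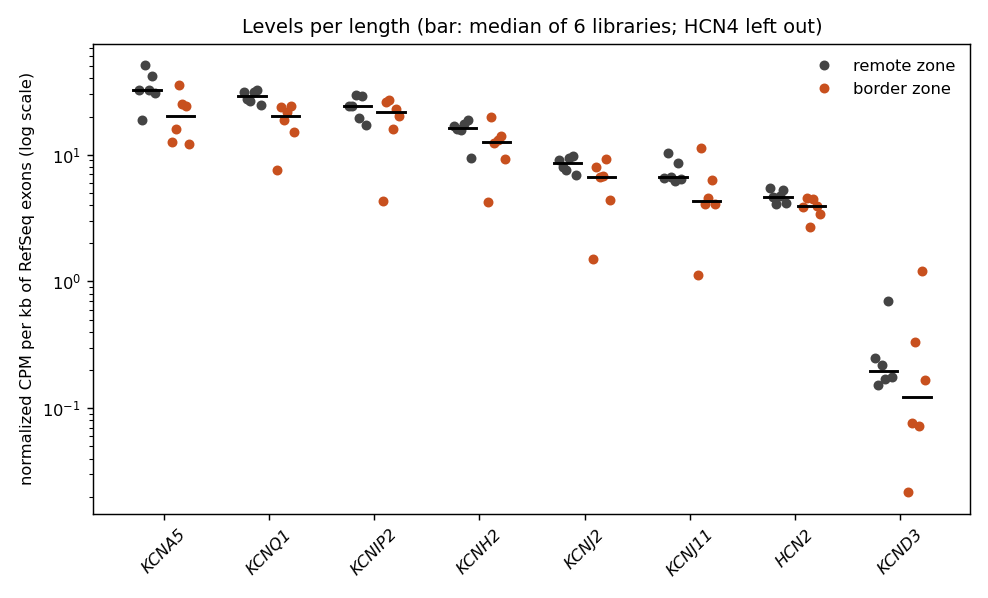
Normalized CPM per kb of RefSeq exons (y axis, log scale) of 8 of the genes in each of 6 remote zone (grey) and 6 border zone (orange) libraries, with bars at the medians. Remote zone medians run from 32.3 for KCNA5 to 0.198 for KCND3, and HCN4, at 0 in 6 libraries, is left out.

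The sodium channel beta subunits tune the gating and surface level of the pore, and the 2 described here lay above 0. Among 5 sodium channel subunits tested here, 3 lay above 0 and 2 below, with a median of 0.21, and SCN2B and SCN3B lay highest. The log2 fold changes were 1.98 (SE 0.570, adjusted p = 0.0764) for SCN2B and 2.74 (SE 0.694, adjusted p = 0.052) for SCN3B, and neither passed by edgeR. By DESeq2 and with library totals both passed, with adjusted p of 0.0166 and 0.0339 for SCN2B and 0.000739 and 0.0245 for SCN3B. SCN2B stood at 1.32 without the border zone library of animal 1022. SCN2B was higher in the border zone in 5 of 6 animals, all but animal 1922, and SCN3B in 6 of 6 animals, the latter with 36.2 to 531 CPM against 11.7 to 141 CPM in the remote zone. SCN4B had no identifier through the symbol table and was not analysed here.

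**Figure D3:**
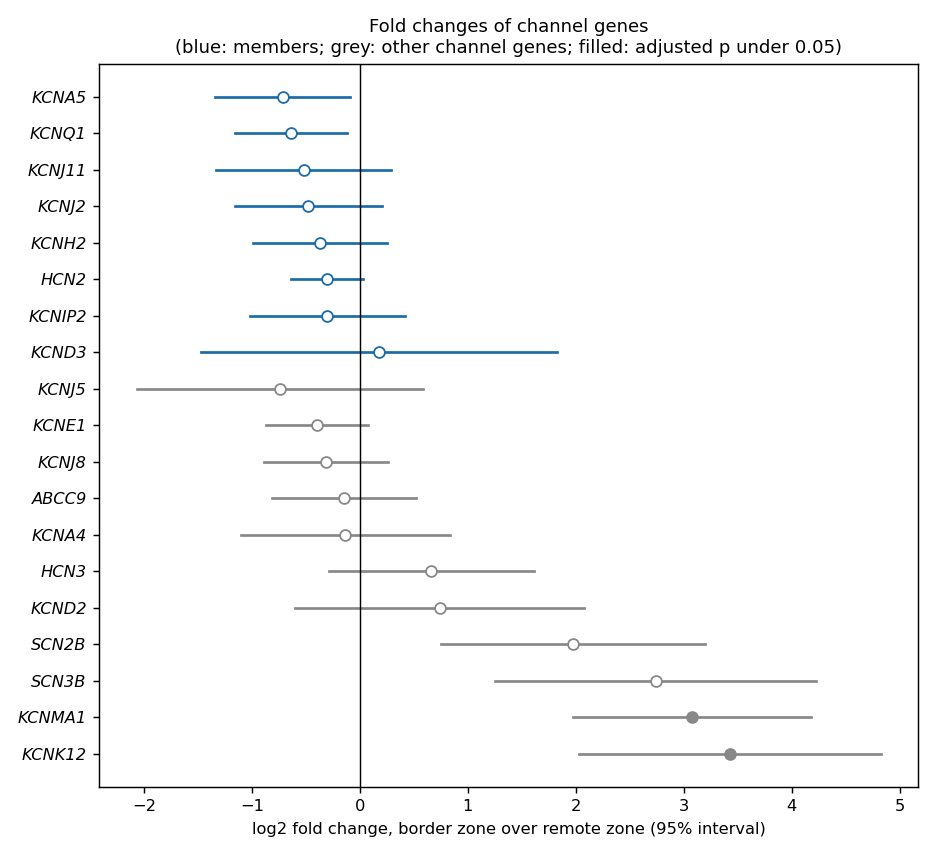
Log2 fold change, border zone over remote zone (x axis), with its 95% interval, for the 8 tested genes (blue) and 11 other channel genes named here (grey). Filled points mark an adjusted p under 0.05, which only KCNK12 and KCNMA1 have, and 7 of the 8 blue points lie below 0.

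Of 90 other sodium channel, potassium channel, HCN and sodium-potassium pump genes, 83 had an identifier, 38 were tested, 2 rose and 0 fell, which is 5.26% of those tested beside the 2.07% of all genes given above. At an unadjusted p under 0.05, KCNAB3 was the 1 gene of the 38 that was lower. KCNMA1, the pore of the large-conductance calcium-activated potassium channel, which smooth muscle is known for, rose with a log2 fold change of 3.07 (SE 0.514, adjusted p = 0.0189). It ran from 2.56 to 16.7 CPM in the border zone and from 0.475 to 1.19 CPM in the remote zone, so that the groups did not overlap. KCNK12, a gene of the tandem-pore potassium channel family, rose with a log2 fold change of 3.43 (SE 0.653, adjusted p = 0.0276), from 0 to 0.659 CPM in the remote zone and from 1.41 to 8.82 CPM in the border zone. With the animal as a block the adjusted p was 0.065 for KCNMA1 and 0.0563 for KCNK12, and both were over 0.05 without animal 1323, 1623 or 3622, as was KCNMA1 without animal 1922. Both were highest in the border zone library of animal 1022, and without it their log2 fold changes were 2.48 for KCNMA1 and 3.03 for KCNK12.

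By list, the 5 tested inward rectifier and ATP-sensitive channel genes beside KCNJ2 and KCNJ11 all had log2 fold changes below 0, with a median of -0.32 and 0 called. The other lists had medians of 0.21 over 5 sodium channel subunits, 0.81 over 8 voltage-gated potassium pores, 0.25 over 6 accessory subunits, 1.4 over 5 calcium-activated channel genes and 0.02 over 6 pump genes, with 1 called gene among them, KCNMA1. The 2 tested tandem-pore channels, with a median of 1.74, were KCNK12 and KCNK6, with KCNK6 at 0.05 (adjusted p = 0.951). These medians stand beside 0.04 over all genes tested.

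Of the cell type marker lists, the fibroblast list and the atrial list held called genes. Of 15 tested fibroblast and matrix genes, 13 rose (list median 2.90 on the log2 scale) and 1 passed with the animal as a block. Of 11 tested cardiomyocyte genes, 0 passed, 3 had an unadjusted p under 0.05 and all 11 were below 0, with a median of -0.51 and, for example, -1.10 (SE 0.434, adjusted p = 0.148) for TNNI3. The smooth muscle list had a median of 1.38, the macrophage list 1.49, the endothelial list 0.12, the atrial list 1.77, the conduction list 0.87 and the nerve list 0.63, with the atrial gene SLN as the 1 gene called among them. The part of these markers in the fold changes of the channel genes was not tested.

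In all 6 animals the mean log2 CPM of the cardiomyocyte list was lower in the border zone, by 2.36 in animal 1022, 0.06 in animal 1322, 0.52 in animal 1323, 0.26 in animal 1623, 0.34 in animal 1922 and 0.72 in animal 3622. For KCNQ1, the differences in the same order were -2.04, -0.20, -0.48, -0.52, -0.43 and -0.71. Animal 1022 had the lowest and animal 1322 the highest value in both series. KCNJ2 in animal 1022 differed by -2.58, KCNJ11 by -2.52 and KCNIP2 by -2.49.

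Set against the mean of that list in each library, the medians over the 6 animals were 0.06 for KCNJ2, -0.13 for KCNJ11, -0.04 for KCNQ1, 0.28 for KCNH2, 0.01 for KCND3, -0.15 for KCNA5, 0.09 for KCNIP2 and 0.10 for HCN2. With the median of the list in place of its mean, all 8 lay higher, at 0.35 for KCNJ2, 0.33 for KCNQ1, 0.45 for KCNH2, 0.34 for KCND3, 0.30 for KCNIP2 and 0.36 for HCN2, while KCNJ11 stood at -0.01 and KCNA5 at 0.08. The values, and the signs of KCNQ1 and KCNA5, thus depended on how the list was summed up, and KCNQ1 also stood at 0.02 without animal 1322, 1623 or 1922. With 1 animal left out, KCNIP2 stood at 0.00 or 0.18 and HCN2 at 0.03 or 0.17. None of the 8 was lower in 6 of 6 animals on this scale, as were 0.354% of all genes tested. In animal 1022, HCN2 was higher by 1.87 and KCNA5 by 1.0 relative to the list, while the other 6 tested genes lay between -0.64 and 0.38. The median of KCND3 rested on single animals and on the prior count: it was -0.64 or 0.67 with any 1 animal left out, -0.12 with a prior count of 0.5 and 0.27 with one of 5. Library scaling cancels in these differences apart from the prior count, and they were not tested.

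**Figure D4:**
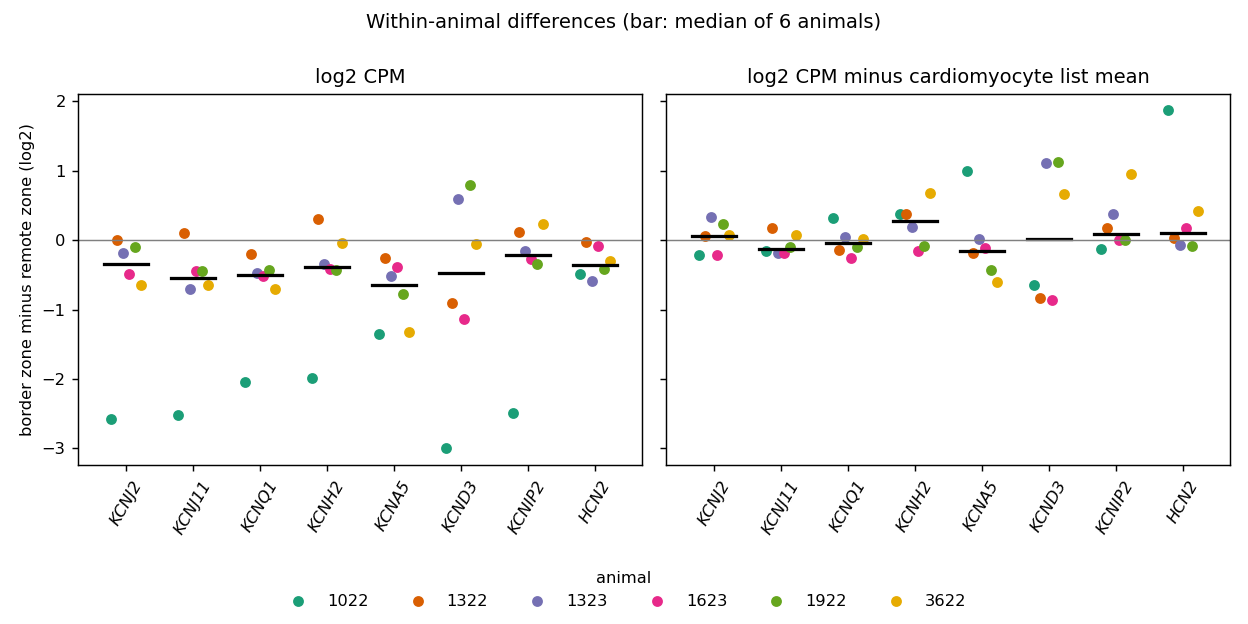
Border zone minus remote zone within each animal (y axis, log2) for the 8 tested genes, in log2 CPM (left) and after subtracting the mean of the cardiomyocyte list (right), with a bar at the median of 6 animals. Animal 1022 lies lowest on the left for most genes, and on the right HCN2 and KCNA5 lie highest in that animal.

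Across the 12 libraries, the log2 levels of KCNJ2, KCNJ11, KCNQ1, KCNH2 and KCNIP2 correlated with each other, with Pearson r between 0.83 for KCNQ1 with KCNIP2 and 0.971 for KCNJ2 with KCNQ1. The other 3 genes lay lower, with r from 0.005 to 0.547 for HCN2, 0.18 to 0.668 for KCNA5 and 0.005 to 0.681 for KCND3. The points share region, animal and library, and the border zone library of animal 1022 was the lowest of its region for KCNJ2, KCNJ11, KCNQ1, KCNH2, KCND3 and KCNIP2.

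By Pearson r of log2 CPM over the 12 libraries, KCNJ2 was most like KLHL41 at 0.980, MDH2 at 0.978 and SLC4A3 at 0.977, and KCNQ1 was most like PINK1 at 0.987, ASB12 at 0.983 and ADHFE1 at 0.981. KCNJ11 was most like another inward rectifier, KCNJ4, at 0.980, then ASB11 and HACL1, both at 0.969. For KCNH2 they were RXFP1 at 0.987, PYGB at 0.983 and AFG2A at 0.979. KCNIP2 was most like PDLIM5 at 0.963 and the sarcomere genes TRIM55 and ACTN2, both at 0.962. The likeness was weaker for KCNA5, led by SLC22A16 at 0.922, PEDS1 at 0.917 and JMJD6 at 0.916, for HCN2, led by KRI1 at 0.935, TFIP11 at 0.898 and TBX1 at 0.896, and for KCND3, led by PKP4 at 0.905, ACTC1 at 0.897 and FAM241A at 0.891. By Spearman's rho, 0 to 2 of the 3 genes named for a member were again among its 3 highest.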

How the data were processed

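Border and remote zone samples of pig hearts were sequenced as poly(A)-enriched, nondirectional libraries with paired ends of 150 bp. The authors aligned reads with STAR to Sscrofa11.1 (Ensembl release 113) and deposited raw counts per gene from featureCounts, without normalization. The handling of reads matching several genes is not given in the sources used here. The sample labels name Trizol or RNeasy for the extraction and the study's methods the EZ1 kit. PCR copies were not told apart.

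Counts were analysed in R 4.3.3 (edgeR 4.0.16, DESeq2 1.42.0) and Python 3.11.15. Genes were kept by filterByExpr (13844), scaled by TMM and compared by the robust quasi-likelihood test with region as the only term. The SE was taken as the absolute log2 fold change over the root of the F statistic. Log2 CPM used a prior count of 2. Steps were tested on simulated data. The main fit recovered 23 of 100 genes changed 2-fold and 84 of 97 changed 4-fold. The blocked fit recovered 7 of 100 and 72 of 97. Levels per kb and upstream sequences came from RefSeq on the same build.

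The 2 libraries sharing a number are from the same animal, which pairs them. Deviations from region means correlated with a mean r of 0.345, from -0.0302 in animal 1022 to 0.572 in animal 1323, with 4 of 6 pairs over 0.1. No pair of libraries agreed within sampling noise.

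The genes, lists and tests were chosen with earlier results of these data known. Named were the 9 members, their partner subunits, sodium channel beta subunits, every listed channel gene past the threshold, and the 3 genes most like each member by Pearson r. KCNK6 and KCNAB3 were named after their values were seen. Markers were named beside the result they touch. A few genes of these lists and 1 upstream window are not reported here. Alternatives were the animal as a block, DESeq2, its size factors, library totals, other filters and prior counts, no mitochondrial genes, the list median, Spearman correlation and each animal left out. Leaving out the border zone library of animal 1022 or 3622 was chosen after the data were seen.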

Additional observations from a re-analysis of the deposited data

Results flagged for a closer look

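In 5 of 26 groups of 6 libraries compared, 1 library stood apart from the rest by its gap, taken on log2 CPM with a prior count of 2. About 1 in 20 groups is expected to show such a gap by chance. KCNH2 in the remote zone had its lowest library in animal 3622, at 5.80, with the next at 6.53. KCND3 in the remote zone had its highest library in animal 1922, at 2.43, with the next at 0.99, and that animal was also the highest in the border zone. The border zone library of animal 1022 was the lowest for KCNIP2, at 5.04, with the next at 6.93. The same library was the highest for HCN4, at 1.32, with the next at -1.91. In the remote zone, HCN4 was highest in animal 1623, at -1.23, with the next at -2.88, which is 9 counts against at most 1.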

How the results depend on the processing

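No tested member passed the threshold under any alternative run. Of 119 alternative log2 fold changes of the members, 117 kept their direction and side, and 2 reversed, both of KCND3, at -0.55 with the animal as a block and -0.52 without animal 1922 (up to 0.44 without the border zone library of animal 1022). The count of all genes past the threshold, 287, was 41 with the animal as a replicate block, 1719 by DESeq2, 1551 with library totals, 139 with no filter, 149 with at least 10 counts in every library and 156 without the border zone library of animal 3622. With an animal left out it ran from 0 to 519. It was 0 without animal 1623 (2662 genes at an unadjusted p under 0.05) and without animal 3622 (2448), 3 without 1323, 15 without 1922 and 163 without 1022. The count of other channel and pump genes, 2, was 0 with the block, 11 by DESeq2, 6 with library totals, 4 with no filter, 1 with at least 10 counts, and 0 to 2 with an animal left out. ABCC9 and KCNA4 reversed with library totals (0.04 and 0.11) and without animal 1022 (0.11 and 0.21), their lowest values with an animal left out being -0.36 and -0.41. With library totals, the median within-animal difference was -0.04 for HCN2, turned from -0.34 to 0.02 for KCNJ2 and went from -0.48 to -0.02 for KCND3, 0 members were lower in every animal and 2 border zone libraries of KCNQ1 were below every remote zone library. Against the median of the cardiomyocyte list, 6 of 8 members stood at 0.30 or above, with KCNJ2 at 0.35 and KCNQ1 at 0.33, and KCNA5 turned from -0.15 to 0.08. SCN2B and SCN3B passed by DESeq2 and with library totals. The replicate block changed no call of a member. The cause of these shifts was not tested. Low counts limit KCND3 and HCN4.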
